A study of Homo sapiens with 27 samples.

Results

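The question addressed here was whether loss of SIRT5 changed gene expression differently in an NRAS-mutant melanoma line, SKMEL2, than in the BRAF-mutant lines A2058 and A375. RNA was sequenced in 27 libraries, and all 27 entered the comparison: 9 from SKMEL2 and 18 from A2058 and A375. Every line had a control arm (NT), infected with a pLKO.1 lentivirus whose hairpin targets Gaussia luciferase, and a pair of knockdown arms (KD1 and KD2), infected with hairpins against human SIRT5, with 3 libraries per arm. All arms received virus and then puromycin (1 µg/ml), RNA was taken 96 h after infection, and the libraries of an arm came from 3 wells. The labels number the hairpins differently from the table's columns, so only KD1 and KD2 are used here. The labels give the line and not its mutation, which is background knowledge. With 1 NRAS-mutant line, the RAS or BRAF mutation and everything else that sets SKMEL2 apart cannot be told apart, and the p-values measure the spread between wells.

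The knockdown effect in a line was the mean of its KD1 and KD2 arms minus its controls on the log2(FPKM + 0.5) scale, and the interaction was the effect in SKMEL2 minus the mean of the effects in A2058 and A375. A positive interaction thus marks a gene that ended higher after knockdown, relative to its own control, in SKMEL2. Genes were kept with at least 1 FPKM in 3 libraries of each line, so that a gene silent in a line was not counted as a difference. This kept 10581 of the 26004 deposited genes, where 16162 reached that level in 3 libraries of at least 1 line. Of the 10581, 470 reached 1 FPKM in some line only in its control or only in its knockdown libraries, and such a gene had to change there.

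SIRT5 is a deacylase, found mainly in mitochondria, that strips acidic acyl marks such as succinyl from lysine side chains. Mutant NRAS signals through the RAF kinases, whereas mutant BRAF signals downstream of RAS, and both drive the kinases MEK and ERK. ERK switches on genes such as the SPRY and DUSP families that feed back to restrain the pathway, and melanoma cells also rely on the transcription factor ATF4, whose targets supply amino acids and answer stress.

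SIRT5 itself fell in every knockdown arm. It stood at 3.55, 3.55 and 2.90 FPKM in the SKMEL2 controls, at 0.229 to 0.242 with KD1 and at 0.598 to 0.712 with KD2. The A2058 controls had 1.81 to 2.36 FPKM and the A375 controls 1.16 to 1.37. SIRT5 was left at 7.01% of control with KD1 and 20% with KD2 in SKMEL2, at 8.44% and 20% in A2058, and at 3.89% and 12.4% in A375. No knockdown library overlapped its controls, and KD1 left less SIRT5 than KD2 in each line. On the log2 scale the SIRT5 effect was -2.05 in SKMEL2, -1.72 in A2058 and -1.54 in A375. That is an interaction of -0.42 ± 0.11 (SE, limma adjusted p = 0.00694), with no call against A2058 alone (adjusted p = 0.0659). This order depends on the scale, since SIRT5 after knockdown lay near or below the constant added to FPKM. Over both hairpins SIRT5 was left at 13.5% of control in SKMEL2, 14.2% in A2058 and 8.15% in A375. The authors' log2 fold changes were -2.92, -2.81 and -3.69, in that order. The SIRT5 interaction therefore does not show a deeper knockdown in SKMEL2 than in A375.

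Depth ran from 20.2 to 40.5 M reads in SKMEL2, from 29.3 to 54.5 M in A2058 and from 7.10 to 23.9 M in A375. The A375 wells also varied most: the median standard deviation of a gene around its arm was 0.205 log2 units there, against 0.083 in A2058 and 0.0712 in SKMEL2. Replicate 3 of the A375 KD2 arm stood apart from its arm, and the counts without it are given beside the counts with it. The melanoma label was checked on the melanocyte regulator SOX10, which had 149 to 160 FPKM in the SKMEL2 controls, 76.3 to 84.9 in A2058 and 178 to 193 in A375. The pigment-cell markers TYR and DCT were at most 0.0311 FPKM in the A375 controls, so A375 had the lineage factor without the pigment genes. The leukocyte and endothelial markers PTPRC, CD3E, CD68, PECAM1, VWF and CDH5 stayed at or under 0.887 FPKM in all 27 libraries.

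Across all genes, the response of SKMEL2 differed from the mean of the BRAF-mutant lines in 3448 of 10581 genes (32.6% of those tested, limma with Benjamini-Hochberg adjustment at 0.05). Of these, 1374 (13.0%) were higher and 2074 (19.6%) lower in SKMEL2, so 39.8% of the called genes were higher. The lean to lower depended on the filter: with any FPKM above 0, 3016 were higher and 2850 lower (51.4% higher). Without replicate 3 of the A375 KD2 arm the count was 5157. The difference from A375 was called in 5315 genes (50.2%) and that from A2058 in 2753 (26.0%), while A375 and A2058 differed from each other in 5824 (55.0%). The lines of like mutation thus differed in more genes than SKMEL2 did from either, counted in comparisons that share libraries and in lines of unequal spread.

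A stricter count kept genes whose SKMEL2 response differed from A2058 and from A375 separately, in the direction of the interaction. This held for 1149 of the 3448: 428 genes higher in SKMEL2 (4.04% of genes tested) and 721 lower (6.81%). Another 1721 differed by test from A375 only, 544 from A2058 only and 34 from neither taken alone. Many of the 1149 moved in the BRAF-mutant lines and passed no test in SKMEL2: in 274 genes A2058 and A375 rose, and in 180 they fell, with no SKMEL2 call. The fit shared the estimate of spread for a gene among all lines, although the median spread was 0.205 in A375 and 0.0712 in SKMEL2. A missing SKMEL2 call therefore does not show that SKMEL2 did not respond. In 53 genes the call was a rise in SKMEL2 alone and in 51 a fall in SKMEL2 alone. A further 238 moved the same way in all 3 lines and by different amounts, and in 47 of those the SKMEL2 change was the larger. Interactions of at least 1 log2 unit were found in 162 of the 1149. Without replicate 3 of the A375 KD2 arm, 1679 genes differed from each line.

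**Figure D1:**
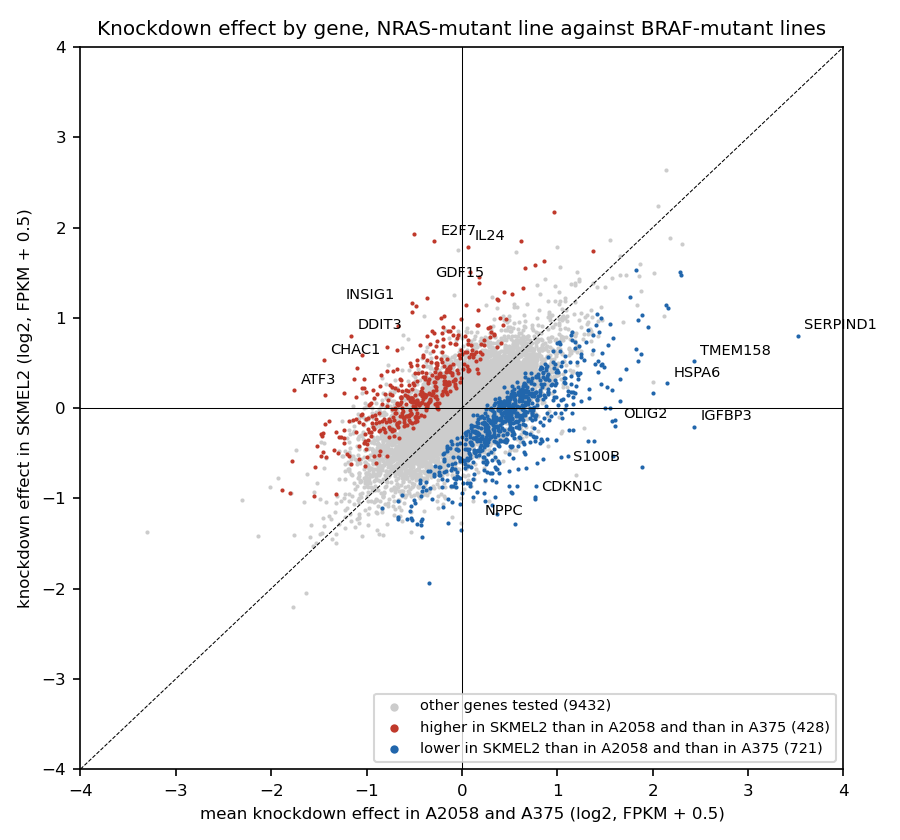
Each point is a gene, placed by its mean knockdown effect in A2058 and A375 (horizontal axis, log2) and its effect in SKMEL2 (vertical axis, log2); the dashed line marks equal effects. Red points (428 genes) were higher and blue points (721 genes) lower in SKMEL2 than in each BRAF-mutant line; IGFBP3, at -0.21 in SKMEL2, lies near the horizontal zero line far to the right, and CHAC1, at 0.53, lies above it on the left.

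In 100 genes the knockdown moved SKMEL2 one way and both BRAF-mutant lines the other. Of these, 27 (0.255% of genes tested) rose in SKMEL2 and 73 (0.690%) fell there, and all 100 also differed from each line. After quantile normalization 54 rose and 86 fell, and without replicate 3 of the A375 KD2 arm the count was 160. The named genes that rose in SKMEL2 and fell in the others were CHAC1, INSIG1, STC2, PHLDB2 and KRT80, and those that fell in SKMEL2 and rose in the others were NPPC, CDKN1C, S100B, RLBP1 and ID4.

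Of the 28 gene lists, the ATF4 stress response had the largest share of members higher in SKMEL2 than in each BRAF-mutant line, followed by mitosis and G2/M. ATF4 is translated when amino acids run short or the endoplasmic reticulum is stressed, and its targets import and make amino acids, charge transfer RNAs and, under long stress, promote death. In A2058 and A375 most of these genes fell after SIRT5 knockdown, 20 and 29 of 33 tested members (all genes, 28.2% and 33.8% fell). In SKMEL2 12 members rose and 6 fell (all genes, 20.6% rose and 23.4% fell). The median effect was -0.42 in A2058, -0.77 in A375 and 0.08 in SKMEL2. The interaction was called higher in SKMEL2 for 24 members and lower for 1, with a median of 0.73 beside -0.01 over all genes. Of the 24, 20 were higher than in A2058 and than in A375, and STC2 was the only member that reached 1 FPKM on the control side alone, in A2058.

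Some members carry in their promoter a match to TGATGNAA, the core of the element that ATF4 binds with C/EBP partners. The promoters of the 4 such members with the largest interactions are shown, to join the gene group to the letters of that element: 250 bases before to 50 after the RefSeq start, on the gene's strand, in GRCh38.p14, with the match in capitals.
CHAC1, chr15:40953221-40953520, plus strand: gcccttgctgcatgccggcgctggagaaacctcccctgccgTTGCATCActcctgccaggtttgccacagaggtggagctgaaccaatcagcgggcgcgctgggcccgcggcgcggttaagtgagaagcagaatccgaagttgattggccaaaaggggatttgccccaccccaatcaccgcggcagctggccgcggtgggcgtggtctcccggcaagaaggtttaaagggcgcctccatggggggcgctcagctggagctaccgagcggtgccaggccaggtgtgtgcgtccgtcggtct
ATF3, chr1:212565157-212565456, plus strand: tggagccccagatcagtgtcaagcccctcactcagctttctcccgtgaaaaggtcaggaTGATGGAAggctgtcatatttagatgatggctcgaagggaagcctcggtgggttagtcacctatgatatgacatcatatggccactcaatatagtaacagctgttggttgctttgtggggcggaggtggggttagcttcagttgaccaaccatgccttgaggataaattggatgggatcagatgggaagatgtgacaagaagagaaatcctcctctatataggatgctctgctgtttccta
CEBPG, chr19:33373863-33374162, plus strand: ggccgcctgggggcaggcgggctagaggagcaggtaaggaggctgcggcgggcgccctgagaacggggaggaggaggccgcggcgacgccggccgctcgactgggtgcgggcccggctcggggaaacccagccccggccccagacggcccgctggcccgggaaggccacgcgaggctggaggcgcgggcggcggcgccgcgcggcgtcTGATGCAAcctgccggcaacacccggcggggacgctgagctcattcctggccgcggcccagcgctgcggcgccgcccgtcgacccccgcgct
SLC7A1, chr13:29595639-29595938, minus strand: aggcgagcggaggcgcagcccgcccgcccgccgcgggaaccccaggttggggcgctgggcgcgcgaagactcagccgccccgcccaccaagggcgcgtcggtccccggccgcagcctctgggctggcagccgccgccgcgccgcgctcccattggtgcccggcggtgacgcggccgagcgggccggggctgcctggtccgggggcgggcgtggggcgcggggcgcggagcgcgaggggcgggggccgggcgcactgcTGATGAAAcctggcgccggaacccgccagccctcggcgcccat
The first base of the match lay at -209 in CHAC1, where it is read on the opposite strand, at -191 in ATF3, at -42 in CEBPG and at 7 in SLC7A1, counted from the start site. Of the 33 members tested, 28 had a window in the RefSeq table, and 10 of these (35.7%) held the match on either strand, beside 2.44% of the 8068 tested genes with a window and 3.62% of all 35116 windows. Among members called higher in SKMEL2 it was 8 of 22 (36.4%), and among the others 2 of 6 (33.3%). The match describes these windows only, and PSPH, SHMT2, SLC7A11, GPT2 and VEGFA had none to search.

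CHAC1 (chr15:40952962-40956512) encodes an enzyme that degrades glutathione and is an ATF4 target in stressed cells. Its SKMEL2 controls stood at 6.52, 6.92 and 6.09 FPKM, the KD1 libraries at 7.32, 8.70 and 8.28 and the KD2 libraries at 10.3, 11.2 and 12.9. In A375 it went from 12.02, 8.39 and 10.6 in controls to between 1.37 and 2.56 over the 6 knockdown libraries (median 1.95), and in A2058 from 4.51, 3.31 and 3.26 to between 1.34 and 3.08 (median 1.81). The groups did not overlap in any line, with the knockdown libraries above the controls in SKMEL2 and below them in A2058 and A375. The interaction was 1.97 ± 0.17 (SE, limma adjusted p = 1.68e-08), from effects of 0.53 in SKMEL2, -0.75 in A2058 and -2.13 in A375.

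DDIT3 (chr12:57516588-57521737) encodes CHOP, a factor that promotes death under prolonged stress. The SKMEL2 controls had 51.5, 52.6 and 44 FPKM, the KD1 libraries 102 to 116 and the KD2 libraries 60.8 to 75.6. In A375 it fell from 37.6, 26.9 and 35.5 to between 4.41 and 8.19 FPKM. In A2058 the hairpins parted: controls were at 9.72 to 11.6, KD1 at 6.15 to 7.99 and KD2 at 14.8 to 16.4 FPKM. So DDIT3 was above control with each hairpin in SKMEL2, below with each in A375, and on either side in A2058. Its interaction was 1.97 ± 0.16 (SE, adjusted p = 4.71e-09), and the A2058 effect of -0.03 was not called (adjusted p = 0.866).

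ATF3, a stress-induced repressor of the same family, differed through its fall in the BRAF-mutant lines. In A375 its controls stood at 10.2, 8.39 and 12.3 FPKM and its knockdown libraries at 0.742 to 1.97, and in A2058 at 4.40, 4.19 and 3.85 against 0.993 to 3.27. In SKMEL2 the controls were at 7.53 to 7.84, KD1 at 10.8 to 11.8 and KD2 at 6.87 to 7.11 FPKM, with KD1 above and KD2 below the controls and no call on the mean (0.20, adjusted p = 0.145). The ATF3 interaction was 1.96 ± 0.14 (SE, adjusted p = 4.65e-10).

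The transcript of ATF4 itself moved with its targets, with a mean FPKM of 111 in controls and 55.7 after knockdown in A2058, 109 and 70.1 in A375, and 199 and 240 in SKMEL2. Its effects were -0.99, -0.72 and 0.25, all called, with an interaction of 1.10 ± 0.11 (SE, adjusted p = 1.32e-07). STC2, a secreted glycoprotein of calcium and phosphate balance, and DDIT4, a brake on the growth kinase mTORC1, showed the same opposition. Their interactions were 1.64 and 1.19. STC2 passed the filter in A2058 only through its controls (1.24 to 1.63 FPKM), so it had to fall in A2058. DDIT4 with KD2 in A375 (35.4 to 53.9 FPKM) overlapped its controls (50.1 to 66.9). GDF15, a stress cytokine, went from 8.24 to 11.4 FPKM in SKMEL2 controls to 16.6 to 33.1 after knockdown, and from 95.4 to 112 down to 45.2 to 84.5 in A2058. In A375 GDF15 stayed at 2.03 to 4.54 FPKM in all 9 libraries, and its effect of 0.07 was not called. Among enzymes and transporters, PSAT1, of serine synthesis, had effects of -1.22 in A2058, -1.70 in A375 and -0.27 in SKMEL2, and the arginine transporter SLC7A1 had -1.43, -2.35 and -0.91. SESN2, another inhibitor of mTORC1, had effects of 1.21 in SKMEL2, 0.31 in A2058 and 0.42 in A375. It was above the controls with each hairpin in SKMEL2 and with KD1 only in the others, where KD2 lay below the controls in A2058 (4.39 to 5.11 against 5.30 to 5.50 FPKM) and overlapped them in A375.

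**Figure D2:**
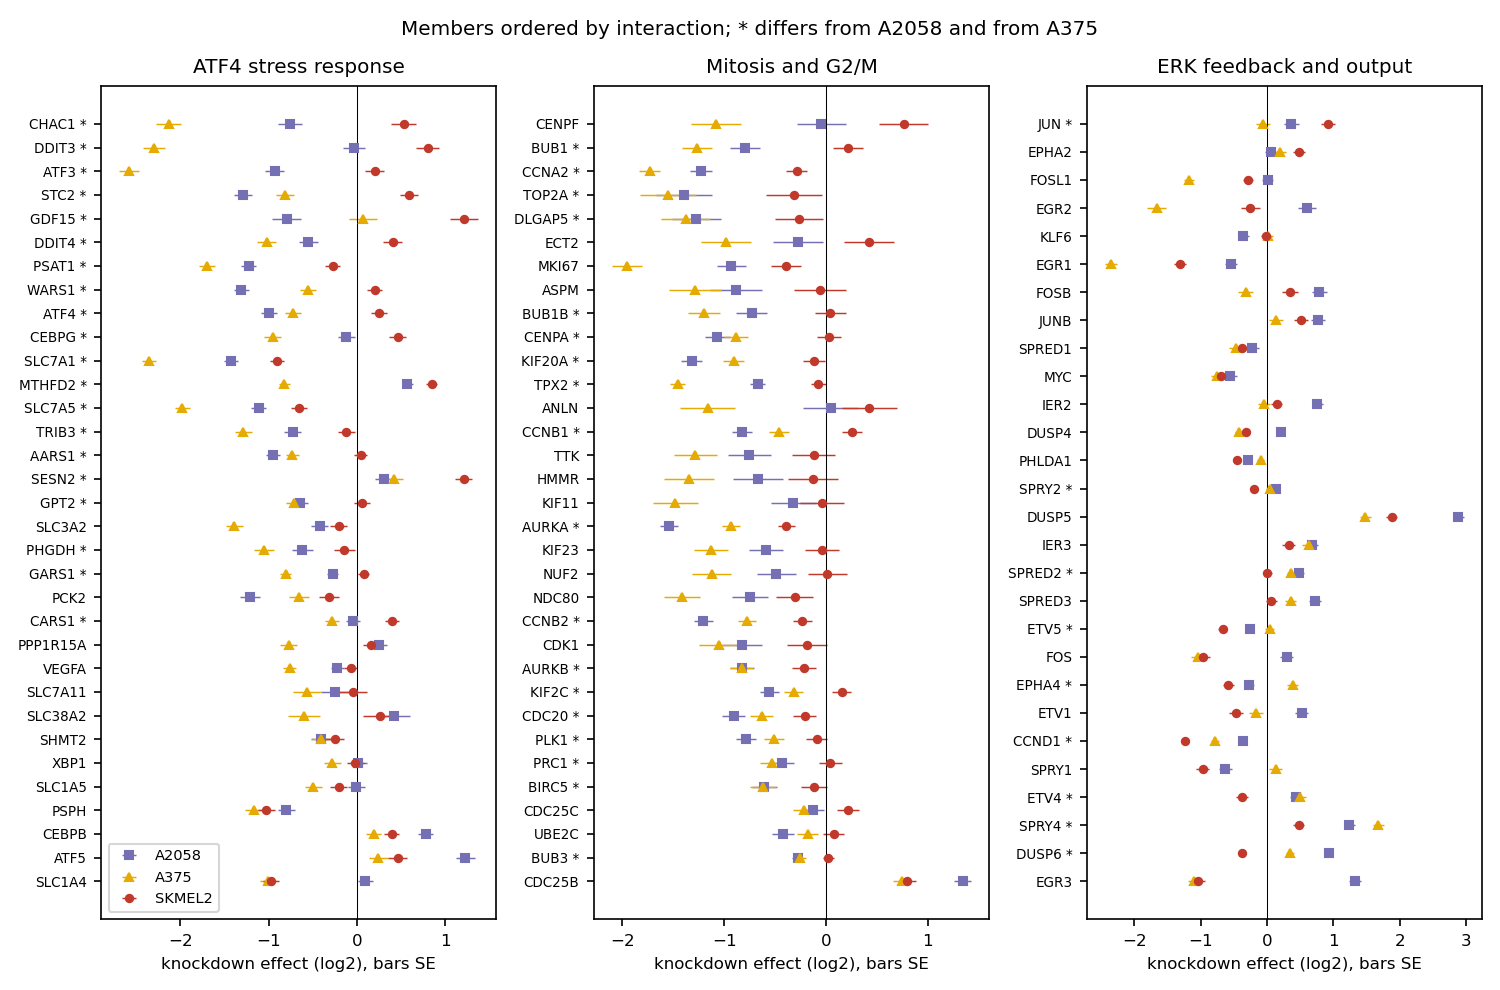
Knockdown effects (log2, with SE bars) of every tested member of the ATF4, mitotic and ERK output lists in A2058 (squares), A375 (triangles) and SKMEL2 (circles), ordered by interaction. The SKMEL2 circles lie to the right for 24 of 33 ATF4 and 32 of 33 mitotic members by test, and to the left for 17 of 28 ERK output members; an asterisk marks members that differed from each BRAF-mutant line.

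On the mean of both hairpins, most genes of mitosis and the G2/M phase fell in A2058 and A375, and few were called in SKMEL2. Of 33 tested members, 27 fell in A2058, 30 in A375 and 4 in SKMEL2, where 3 rose. The median effect was -0.75, -1.05 and -0.06, in that order. The interaction was called higher in SKMEL2 for 32 members, with a median of 0.86 over the list. The other, the phosphatase gene CDC25B, had an interaction of -0.25 that was not called (limma adjusted p = 0.0705). Without replicate 1 of the SKMEL2 controls the count of 32 was 22. Of the 32, 18 were higher than in each BRAF-mutant line. The hairpins parted in SKMEL2, where FPKM summed over all 35 listed genes was 469 to 593 in controls, 336 to 368 with KD1 and 817 to 867 with KD2. In A375 the sum was 651 to 771 in controls, 246 to 328 with KD1 and 736 to 826 with KD2, and in A2058 it was 965 to 1028, 564 to 595 and 683 to 706.5. The summed level was thus below the controls with each hairpin in A2058 only. In A375 and in SKMEL2 it was below them with KD1 only. With KD2 it overlapped the controls in A375 and lay above them in SKMEL2. In these bulk libraries fewer dividing cells and less of each transcript per cell cannot be told apart.

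CCNA2, the cyclin of S and G2 phase, had 32.2, 34.3 and 32.7 FPKM in A2058 controls, 10.3 to 12.7 with KD1 and 16.6 to 17.2 with KD2. In A375 it went from 18.3, 20.2 and 20.1 to 1.84 to 2.63 with KD1 and 10.6 to 16.5 with KD2. In SKMEL2 it went from 15.8, 19.6 and 20.7 to 9.18 to 9.64 with KD1, and stood at 23.3 to 25.5 with KD2. Both hairpins took CCNA2 below every control in A2058 and A375, while in SKMEL2 KD1 lay below and KD2 above the controls. The CCNA2 interaction was 1.24 with KD1 and 1.15 with KD2, so the difference from the BRAF-mutant lines was there with each hairpin, and over both it was 1.19 ± 0.13 (SE, adjusted p = 4.15e-07).

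BUB1, a kinase of the spindle checkpoint, had an interaction of 1.25 ± 0.18 (SE, adjusted p = 2.06e-05), from -0.80 in A2058, -1.27 in A375 and an uncalled 0.22 in SKMEL2. CCNB1, the cyclin that starts mitosis, was the member with opposite calls: -0.83, -0.46 and 0.26. The mitotic kinase AURKA fell in all 3 lines, by 1.54, 0.93 and 0.39 on the log2 scale in A2058, A375 and SKMEL2. CENPF, a kinetochore protein, had a larger interaction (1.33) with no call against A2058 alone (adjusted p = 0.0843). Genes of DNA replication and the G1/S step did not share the pattern: 5 of 40 were higher and 5 lower in SKMEL2, with a median interaction of 0.06. These replication genes fell in 35 of 40 cases in A375, 17 in A2058 and 21 in SKMEL2.

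E2F7, an atypical E2F that represses cell-cycle genes, had the largest interaction among the named genes that were higher in SKMEL2. Its SKMEL2 controls stood at 4.95, 5.24 and 5.98 FPKM, the KD1 libraries at 27.4, 32.4 and 29.9 and the KD2 libraries at 13.7, 14.7 and 14.3. In A375 it fell from 6.12 to 8.43 FPKM to 2.56 to 4.25. In A2058 KD1 had 12.0 to 12.8 FPKM, above controls at 6.02 to 7.41, and KD2 had 6.79 to 8.00, overlapping them. Only SKMEL2 showed a rise with both hairpins clear of the controls. The interaction was 2.14 ± 0.13 (SE, adjusted p = 1.22e-10), with effects of 1.85 in SKMEL2, 0.45 in A2058 and -1.04 in A375.

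INSIG1, which holds back cholesterol synthesis by retaining SREBP in the endoplasmic reticulum, was at 8.84 to 10.03 FPKM in SKMEL2 controls and 19.03 to 24.7 after knockdown. In A2058 KD1 (31.3 to 32.1 FPKM) lay among the controls (29.8 to 32.0) and KD2 fell to 14.4 to 16.5, and in A375 controls of 7.19 to 8.73 overlapped knockdown libraries of 3.77 to 7.32. The INSIG1 effects were 1.16 in SKMEL2, -0.48 in A2058 and -0.56 in A375 (interaction 1.68 ± 0.11, SE, adjusted p = 2.4e-10). Cholesterol synthesis as a list did not follow, with 4 of 22 members higher and 1 lower in SKMEL2 and a median of 0.03. HMGCS1 and SQLE, enzymes of the pathway, were among the higher ones at 0.78 and 0.62. GCLM, of glutathione synthesis, was higher by 1.03 ± 0.10 (SE, adjusted p = 1.32e-07) after falling by 1.02 in A2058 and 0.82 in A375. IL24, a cytokine of the IL10 family, rose in SKMEL2 from 11.6 to 13.5 FPKM to 30.0 to 37.6 with KD1 and 56.3 to 59.0 with KD2. In A375 and A2058 the KD1 libraries lay below their controls for IL24, and the A2058 KD2 libraries above, so its mean effects there (-0.58 and 0.71) join unlike arms. PHLDB2, a cortical microtubule anchor, and KRT80, a keratin, fell in A2058 and A375 and rose by 0.44 and 0.32 in SKMEL2. PHLDB2 was under 1 FPKM in the SKMEL2 controls (0.597 to 0.685). It passed the filter there only through knockdown libraries (0.910 to 1.14), so it had to rise in SKMEL2. For KRT80 the mean effects also join unlike arms. Its A375 KD2 libraries (22.8 to 33.9 FPKM) overlapped the controls (24.1 to 30.7), and in SKMEL2 KD1 (4.74 to 5.33) lay below and KD2 (9.45 to 10.03) above the controls (5.35 to 5.71).

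**Figure D3:**
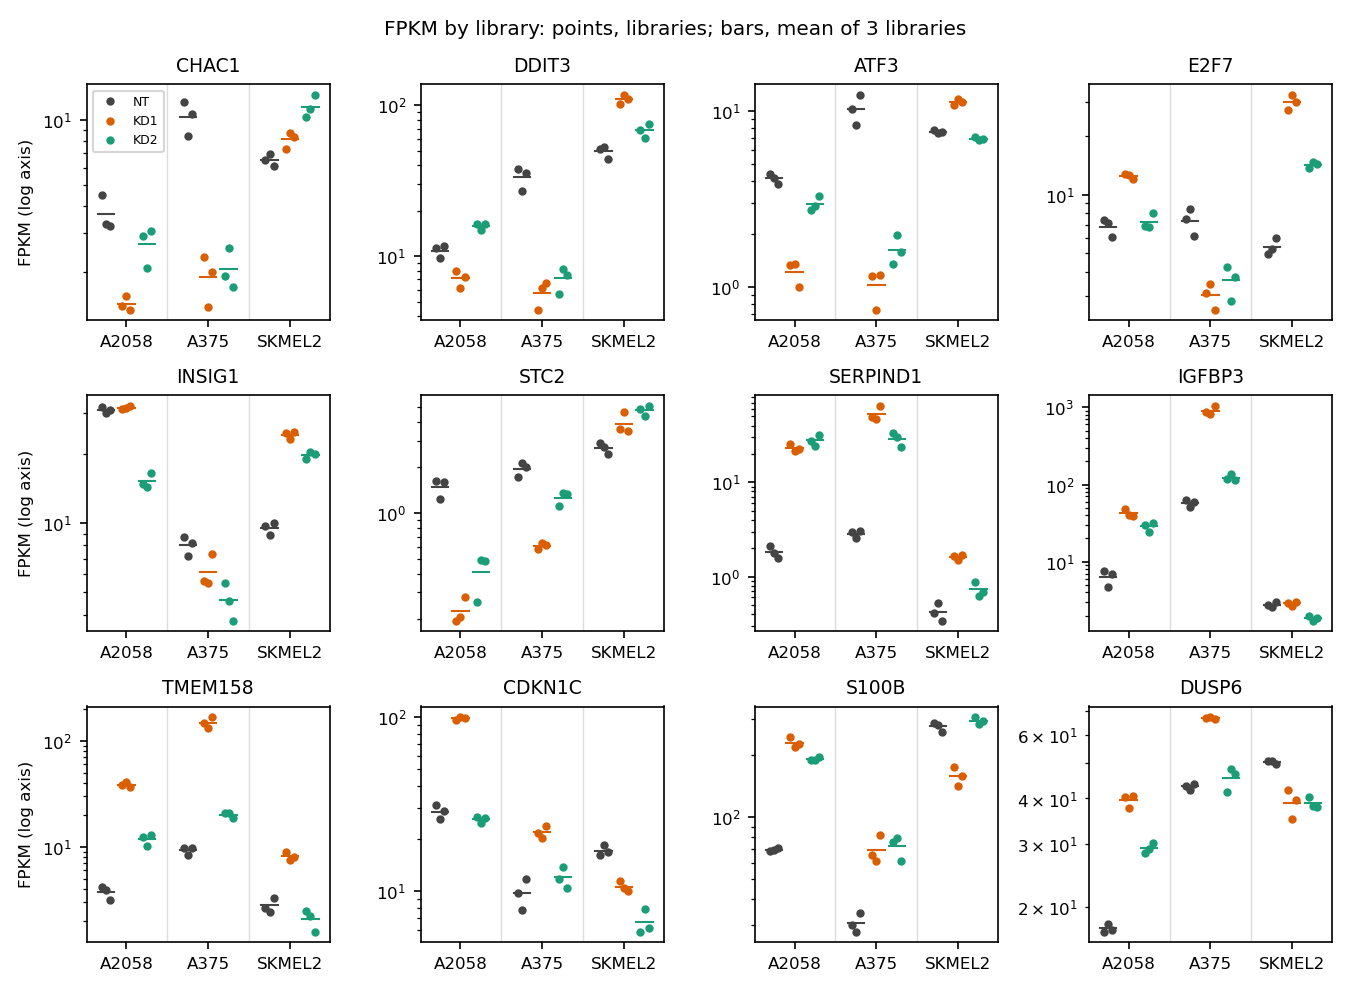
FPKM of 12 genes in each of the 27 libraries (log axis), by line and arm; bars are means of 3 libraries. CHAC1 and STC2 rise in SKMEL2 and fall in the BRAF-mutant lines, and hairpins part for DDIT3 and E2F7 in A2058. SERPIND1 rises by far more in A2058 and A375 than in SKMEL2, and IGFBP3 rises in A2058 and A375 only.

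Few components of the ERK pathway responded differently by line. Of 17 tested, 2 were higher and 2 lower in SKMEL2, near the 13.0% and under the 19.6% over all genes. NRAS, the mutant gene of SKMEL2, was at 45.5 to 48.2 FPKM in its controls, 92.4 to 97.4 with KD1 and 43.3 to 43.9 with KD2. It thus stood higher with KD1 and just under the controls with KD2, and KD1 libraries of A2058 and A375 also lay above their controls. The NRAS interaction was 0.59 ± 0.17 (SE, adjusted p = 0.0114). BRAF itself had 0.33 ± 0.13 (SE, adjusted p = 0.0486), with no call against A2058 (adjusted p = 0.778), and MAP2K2, the kinase MEK2, and the adaptor GRB2 were lower at -0.39 and -0.38.

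The genes that ERK switches on were lower more often than higher in SKMEL2, mainly against A2058. Of 28 tested feedback and output genes, 17 were lower and 3 higher, with a median interaction of -0.29, and 8 were lower than in each BRAF-mutant line. The median difference was -0.46 from A2058 and 0.02 from A375. In SKMEL2 16 fell and 7 rose after knockdown, in A2058 8 fell and 16 rose, and in A375 10 fell and 8 rose. Over all genes 28.8% rose in A2058 and 35.1% in A375.

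DUSP6, the phosphatase that inactivates ERK, had 50.7, 50.9 and 49.8 FPKM in the SKMEL2 controls and 35 to 42.1 over the 6 knockdown libraries (median 38.9). In A2058 it went from 17.1, 18 and 17.3 up to 28.2 to 40.7 FPKM. In A375 controls of 42.3 to 43.9 FPKM compared with 66.5 to 67.1 with KD1 and 41.7 to 48.4 with KD2. DUSP6 was below every control in SKMEL2, above every control in A2058, and in A375 clear of the controls with KD1 only. Its interaction was -1.02 ± 0.07 (SE, adjusted p = 2.87e-10), from -0.37, 0.94 and 0.35.

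ETV4, an ETS factor induced by ERK, had the same opposite calls, -0.38 in SKMEL2 and 0.43 and 0.50 in A2058 and A375, although its A2058 KD2 libraries (28.2 to 31.0 FPKM) lay among the controls (29.0 to 30.7). SPRY4, an inhibitor of RAS signalling, rose everywhere, from 50.5 to 57.7 FPKM to 69.8 to 82.1 in SKMEL2, from 7.32 to 8.16 to 13.8 to 25.1 in A2058 and from 25.0 to 26.9 to 46.7 to 149 in A375. The SPRY4 rise was the smaller in SKMEL2 (interaction -0.98 ± 0.10, SE, adjusted p = 1.11e-07). Cyclin D1, CCND1, fell in every line and by 1.23 in SKMEL2, beside 0.37 in A2058 and 0.78 in A375. EGR3, an immediate-early factor, was a member whose BRAF-line mean joins unlike effects: it rose by 1.33 in A2058 and fell by 1.10 in A375 and 1.04 in SKMEL2. JUN was an exception in the other direction, from 10.1 to 13.1 FPKM in SKMEL2 controls to 17.1 to 30.3, with an interaction of 0.77.

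On the lower side stood secreted and membrane proteins. SERPIND1 (chr22:20774113-20787720), or heparin cofactor II, an inhibitor of thrombin, had the most negative interaction among the named genes. The SKMEL2 controls had 0.407, 0.520 and 0.340 FPKM and the knockdown libraries 0.619 to 1.68 (median 1.18). In A2058 it went from 2.09, 1.79 and 1.59 to 21.5 to 31.7 FPKM, and in A375 from 2.93, 2.58 and 3.06 to 23.9 to 64.2. SERPIND1 rose in all 3 lines without overlap, by 3.49 and 3.56 in A2058 and A375 and by 0.80 in SKMEL2. In SKMEL2 it reached the 1 FPKM of the filter in 3 libraries only with KD1 (1.48 to 1.68), so it had to rise there. The interaction was -2.72 ± 0.14 (SE, adjusted p = 1.03e-11), and since SKMEL2 levels were low, the log2(FPKM + 0.5) scale understates the SKMEL2 change.

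IGFBP3 (chr7:45912245-45921874), which binds insulin-like growth factors, was at 2.57 to 3.00 FPKM in the SKMEL2 controls, 2.70 to 3.04 with KD1 and 1.72 to 2.00 with KD2. The A2058 controls had 7.65, 4.70 and 6.93 FPKM and the knockdown libraries 24.0 to 47.8, and in A375 the controls had 51.6 to 63.7 and the knockdown libraries 114 and more, with KD1 at 809 FPKM or above. In SKMEL2 KD1 overlapped the controls and KD2 lay below them, and in A2058 and A375 every knockdown library lay above. The IGFBP3 interaction was -2.64 ± 0.15 (SE, adjusted p = 3.32e-11).

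TMEM158, a membrane protein known to rise with RAS-induced senescence, was at 2.45 to 3.33 FPKM in SKMEL2 controls, 7.51 to 9.03 with KD1 and 1.59 to 2.46 with KD2. In A2058 it went from 3.12 to 4.19 FPKM to 36.8 to 41.4 with KD1 and 10.2 to 12.8 with KD2, and in A375 from 8.39 to 9.86 to 131 to 167 and 18.6 to 21.0. So TMEM158 rose with each hairpin in the BRAF-mutant lines and with KD1 only in SKMEL2. Its interaction was -1.91 ± 0.14 (SE, adjusted p = 1.21e-09).

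CDKN1C, the cyclin-dependent kinase inhibitor p57, moved in opposite directions. The SKMEL2 controls were at 16.1, 18.5 and 16.7 FPKM and the knockdown libraries at 5.83 to 11.4 (median 8.91). The A2058 controls were at 25.9 to 31.1 FPKM, KD1 at 95.6 to 99.6 and KD2 at 24.4 to 26.6, and the A375 controls at 7.76 to 11.7, KD1 at 20.2 to 23.5 and KD2 at 10.4 to 13.8. The fall in SKMEL2 was there with each hairpin, while the rise in the BRAF-mutant lines was clear of the controls with KD1 only. The CDKN1C interaction was -1.75 ± 0.13 (SE, adjusted p = 1.3e-09).

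S100B, a calcium-binding protein used as a melanoma marker, rose in A2058 (68.4 to 71.3 FPKM in controls, 190 to 245 after knockdown) and A375 (27.9 to 34.4 and 61.5 to 82.0). In SKMEL2 KD1 lay below its controls (142 to 176 against 261 to 289 FPKM) and KD2 at 284 to 307 overlapped them. Its interaction was -1.75 ± 0.11 (SE, adjusted p = 1.35e-10). For NPPC, the C-type natriuretic peptide, RLBP1, a retinoid carrier, and ID4, an inhibitor of basic helix-loop-helix factors, the interactions were -1.77, -1.69 and -1.64. In A2058 the rises of NPPC and RLBP1 were with KD1 only, and ID4 with KD2 (1.83 to 2.22 FPKM) overlapped its controls (1.61 to 1.93). NPPC with KD2 in A375 (0.950 to 1.51) also overlapped its controls (0.830 to 1.09). RLBP1 with KD1 in SKMEL2 (45.2 to 67.5) overlapped its controls (60.7 to 69.9). NPPC was under 1 FPKM in the A2058 controls (0.163 to 0.291) and with KD2 there (0.08 to 0.378). It passed the filter in A2058 only through KD1 (1.26 to 1.79), so it had to rise in A2058. RLBP1 had 0.855 to 1.42 FPKM in A2058 controls, 7.22 to 8.04 with KD1 and 0.404 to 0.894 with KD2. The integrin ITGA10 and the factor OLIG2 rose in the BRAF-mutant lines with uncalled effects of 0.17 and -0.20 in SKMEL2. The OLIG2 mean in SKMEL2 joins unlike arms, with KD1 (1.49 to 1.70 FPKM) below and KD2 (3.36 to 3.82) above the controls (2.62 to 3.27). ITGA10 was under 1 FPKM in the controls of A2058 (0.233 to 0.295) and A375 (0.674 to 0.876) and passed the filter there only through knockdown libraries, so it had to rise in both. HSPA6, an inducible heat-shock protein, had an interaction of -1.88 that is uncertain, since its reads can be shared with near-identical copies.

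Among matrix and adhesion genes lower calls outnumbered higher ones, as they did over all genes. Of 26 tested collagens, laminins and integrins, 11 were lower and 3 higher in SKMEL2, 8 of them lower than in each BRAF-mutant line, with a median of -0.18. The median interaction was -0.50 with KD1 and 0.04 with KD2, and 6 members were lower with each hairpin. ITGB3, the integrin β3 subunit, went from 15 to 16.7 FPKM to 29.3 to 126 in A2058 and from 22.1 to 23.9 to 33.8 to 120 in A375, and from 19.9 to 21.2 to 22.5 to 37.0 in SKMEL2. ITGB3 rose in all 3 lines without overlap, least in SKMEL2 (interaction -1.29 ± 0.09, SE, adjusted p = 3.69e-10). TGFBR2, a TGF-β receptor, and ERBB3, a receptor of neuregulins, were lower by -1.05 and -1.17. PC, pyruvate carboxylase of the mitochondrial matrix, had effects of 1.11 in A2058, 1.21 in A375 and -0.25 in SKMEL2. The SKMEL2 mean joins unlike arms, with KD1 (4.41 to 4.95 FPKM) above and KD2 (2.43 to 2.54) below the controls (4.09 to 4.32). In A375 the KD2 libraries of PC (12.6 to 20.2 FPKM) overlapped the controls (11.3 to 13.2).

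Pigment-cell genes were lower in SKMEL2 as far as they could be compared. Of 25 in the list, 15 passed the filter; TYR, TYRP1, DCT, MLANA, KIT, SLC45A2, SLC24A5, GPR143, TRPM1 and ABCB5 did not. Of the 15, 8 were lower, 6 of them lower than in each BRAF-mutant line, with a median of -0.42. Over all genes 19.6% were lower and 6.81% lower than in each line. The 8 include the cyclin-dependent kinase CDK2 (-0.70, chr12:55966781-55972789), which lies within PMEL on the opposite strand. Strand use in counting is not stated, so reads of CDK2 and PMEL cannot be assigned with certainty. In SKMEL2 12 fell, in A2058 7 fell and 2 rose, and in A375 7 fell and 7 rose. EDNRB, the endothelin receptor of melanocytes, stood at 17.0 to 19.1 FPKM in SKMEL2 controls and 15.1 to 20.01 after knockdown, an overlap, while it rose from 33.2 to 33.5 to 49.8 to 89.9 in A2058 and from 4.38 to 5.25 to 13.5 to 36.8 in A375. PMEL, the melanosome fibre protein, fell from 1047 to 1203 FPKM to 386 to 543 in SKMEL2 and from 210 to 228 to 137 to 191 in A2058. In A375 PMEL was at 0.653 to 1.07 FPKM in controls and 1.59 to 6.11 after knockdown, so its interaction of -1.84 rests in part on values near the filter. MITF, the factor that governs this programme, fell in each line, with effects of -1.17 in SKMEL2, -1.22 in A2058 and -0.94 in A375, with an interaction of -0.09 ± 0.20 (SE, adjusted p = 0.744).

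**Figure D4:**
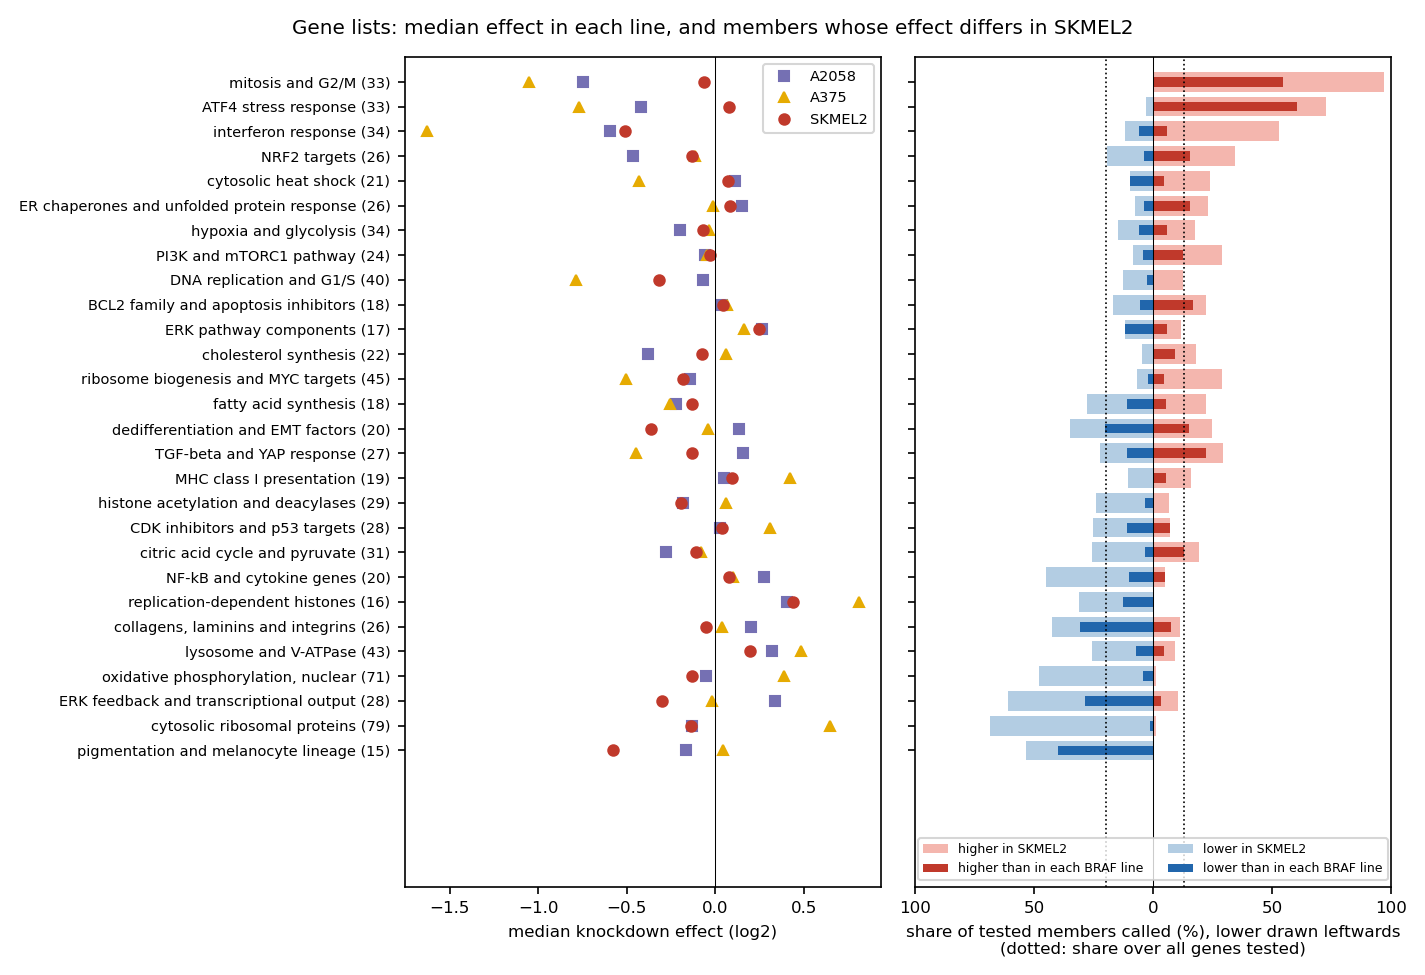
Left, median knockdown effect (log2) of each gene list in A2058 (squares), A375 (triangles) and SKMEL2 (circles), with the number of members tested in brackets. Right, share of tested members (%) called higher (red, rightwards) or lower (blue, leftwards) in SKMEL2, with the narrow dark bars for members that differed from each BRAF-mutant line and dotted lines at the shares over all genes, 13.0% and 19.6%.

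For some lists the interaction was called mainly against A375. Interferon-response genes, which include RNA sensors and antiviral effectors, were higher in SKMEL2 for 18 of 34 tested members and lower for 4, with a median of 0.64. Their median effect was -0.51 in SKMEL2 and -0.60 in A2058, and -1.63 in A375, and 2 members were higher and 2 lower than in each BRAF-mutant line. Without replicate 2 of the SKMEL2 controls the count of 18 was 10, and without replicate 3 it was 25. IFIT1, an antiviral RNA-binding protein, stood at 1.04, 1.44 and 6.03 FPKM in those controls, with replicate 3 above the others. IFIT1 fell below 1 FPKM in all 6 knockdown libraries of SKMEL2 (0.343 to 0.672) and of A375, there from 27.8, 17.3 and 12.8. In both lines it passed the filter only through the controls, so it had to fall in both. The IFIT1 effects were -1.37 in SKMEL2, -2.33 in A2058 and -4.29 in A375, all called. It had an interaction of 1.93 ± 0.35 (SE, adjusted p = 0.000197) and no call against A2058 (adjusted p = 0.0847). Of the 34 interferon members, 6 reached 1 FPKM in some line on the control or the knockdown side only.

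Cytosolic ribosomal proteins were lower in SKMEL2 in 54 of 79 members and higher in 1, with a median of -0.40. The median difference from A375 was -0.79 and that from A2058 0.00. Only RPL22, an RNA-binding subunit, was lower than in each BRAF-mutant line, at 18.7 to 20.6 FPKM in SKMEL2 controls and 9.59 to 13.1 after knockdown, with an interaction of -0.73 ± 0.10 (SE, adjusted p = 5.63e-06). Summed over the 79 genes, the A375 controls had 22590 to 28280 FPKM, KD1 27150 to 34660 and KD2 44790 to 64040, the lowest of the KD2 values being replicate 3. In SKMEL2 and A2058 the sum was below the controls in every KD1 library and above them in every KD2 library. Because reads of these genes can be shared with many pseudogenes, single values are uncertain. Nuclear genes of oxidative phosphorylation were lower in 34 of 71 and higher in 1, with a median of -0.28, -0.51 against A375 and -0.06 against A2058, and 3 were lower than in each line. After quantile normalization the counts of 54 and 34 were 23 and 22, so how the libraries are scaled bears on these lists. What A375's depth and spread contributed was not tested.

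**Figure D5:**
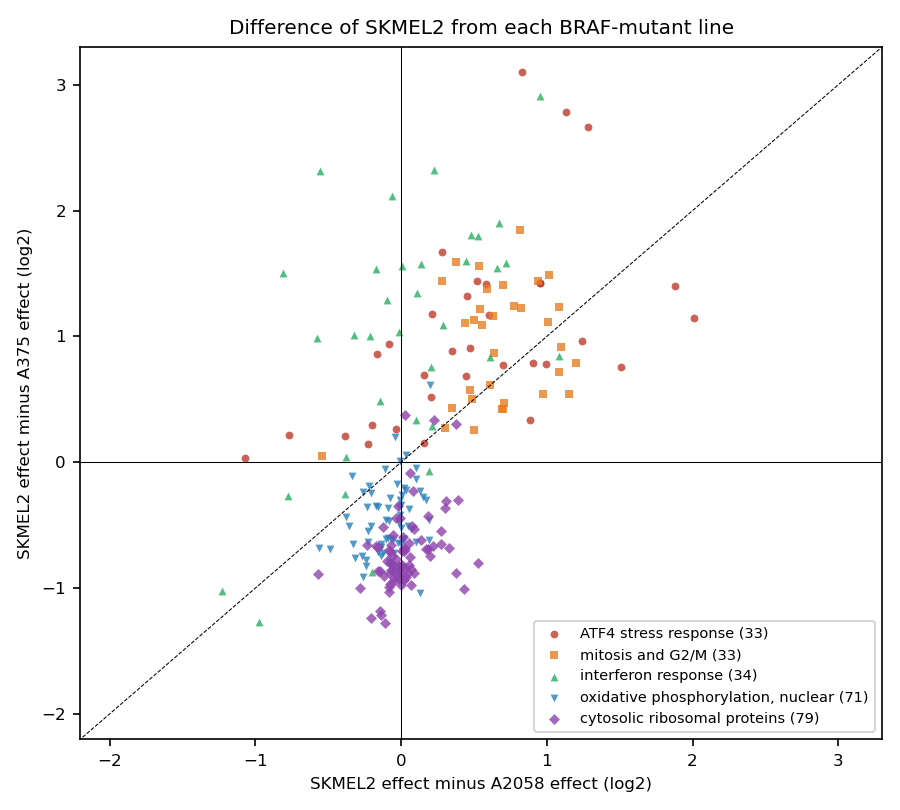
Each point is a tested member of 5 gene lists, placed by the SKMEL2 effect minus the A2058 effect (horizontal, log2) and minus the A375 effect (vertical, log2); the dashed line marks equal differences. Mitotic members other than CDC25B, and most ATF4 members, lie above 0 on both axes, while ribosomal members centre on 0.00 horizontally and -0.79 vertically and interferon members on 0.06 and 1.06.

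The counts of the other lists are read beside 13.0% higher and 19.6% lower over all genes. In the PI3K and mTORC1 list 7 of 24 were higher and 2 lower, including DEPTOR, an mTOR inhibitor, at -1.36. DEPTOR passed the filter in A2058 only through KD2 (1.27 to 1.72 FPKM), so it had to rise in A2058. NRF2 targets had 9 higher and 5 lower of 26, ribosome biogenesis and MYC targets 13 and 3 of 45, chaperones of the endoplasmic reticulum 6 and 2 of 26, and heat-shock genes of the cytosol 5 and 2 of 21. NF-kB and cytokine genes had 9 of 20 lower and 1 higher, and histones 5 of 16 lower. Lysosome genes had 11 of 43 lower and 4 higher, and p53 targets and cyclin-dependent kinase inhibitors 7 of 28 and 2. Acetylation and deacylase genes had 7 of 29 lower and 2 higher. The lysosome, p53 and acetylation lists were near the lower share over all genes. Mixed lists were hypoxia and glycolysis (6 higher and 5 lower of 34), the citric acid cycle (6 and 8 of 31), fatty acid synthesis (4 and 5 of 18), TGF-β and YAP genes (8 and 6 of 27), dedifferentiation factors (5 and 7 of 20), the BCL2 family (4 and 3 of 18) and MHC class I genes (3 and 2 of 19).

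The hairpins gave unlike sizes of difference. The interaction was called with each hairpin and in the mean for 521 genes higher in SKMEL2 (4.92%) and 848 lower (8.01%), or 2429 in all without replicate 3 of the A375 KD2 arm. Called against each line and with each hairpin were 772 genes (7.30%). The interaction itself differed between KD2 and KD1 in 3507 genes (33.1%). Of the 33 ATF4 members, 20 were higher with each hairpin, and of the 33 mitotic members 19. In the authors' deposited tables, which are their own fits to the same libraries, the interaction formed from their log2 fold changes had the sign found here for 3440 of 3445 called genes with a value in each line.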

How the data were processed

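Paired-end reads of 50 nucleotides were aligned by the authors with STAR 2.7.3a against GENCODE release 34 (GRCh38), counted with featureCounts (Subread 2.0.0) and tested with DESeq2 1.28.1, per the labels and the submitters' processing notes. The authors deposited FPKM of 26004 genes in 27 libraries, and tables of knockdown against control whose base mean is a normalised signal, with fold changes on the log2 scale and each p-value raw and adjusted. Strand use in counting is not stated there. 1 raw file of A375 control replicate 2 is truncated.

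From these, limma 3.58.1 in R 4.3.3 fitted log2(FPKM + 0.5) over 9 arms (trended variance), and p-values were adjusted by Benjamini-Hochberg at 0.05. All lines shared the same estimate of spread for a gene. The FPKM are not counts; whole reads recovered from FPKM and base mean (100% within 0.05 of a whole number) gave the depth of 7.10 to 54.5 M reads and an alternative test. Named genes were the 10 largest protein-coding interactions in each direction called against each line and with each hairpin, with a mean FPKM of at least 2, then 5 opposite ones in each direction and up to 4 called members of each of 28 lists. Members and lists were chosen with earlier results of these data known. Gene positions are GENCODE release 44 on GRCh38, and promoters RefSeq GRCh38.p14. Replicate numbers paired nothing (2 of 27 same-number pairs correlated above 0.1). Tested on simulated data with 200 of 10581 genes changed in SKMEL2 only, the fit recovered 37.3% at 1.5-fold, 86.6% at 2-fold and 100% at 4-fold, with 6 false calls. The simulated libraries all had the same dispersion (0.02), so errors under the wider spread of A375 were not tested. Alternatives were another pseudocount, filter, scaling, weighting, a replicate block, limma-voom and leaving out each library.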

Additional observations from a re-analysis of the deposited data

Results flagged for a closer look

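The difference between hairpins was the pattern met most often. The interaction with KD2 minus that with KD1 was called in 3507 of 10581 genes, beside 3448 called in the interaction itself, and in 17 of the 22 genes named across the comparison (limma, adjusted p under 0.05). It was negative, so that SKMEL2 stood out more with KD1, for the higher genes E2F7 (-0.78), DDIT3 (-1.38), ATF3 (-1.41), IL24 (-1.60) and KRT80 (-0.89), and positive for INSIG1 (0.42). For the lower genes a positive value means a larger gap with KD1, as for IGFBP3 (1.20), TMEM158 (0.51), ITGA10 (1.45), OLIG2 (2.03), NPPC (2.13), CDKN1C (0.72), S100B (1.00), RLBP1 (2.08) and ID4 (0.62). SERPIND1 (-0.47) and HSPA6 (-0.69) had the larger gap with KD2. KD1 also left less SIRT5 than KD2 in all 3 lines, and its part in these differences was not tested.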

How the results depend on the processing

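Each of the 22 genes named for the size of its interaction or of its opposite directions kept its direction and call under every alternative in which it was tested (some fall out at an FPKM of at least 5). Other named list members were not refitted one by one. Counted for each list under each alternative, 39 untested medians moved by more than their spread between libraries and 997 did not. With an FPKM of at least 5 (5606 genes), 2026 genes were called, 677 against each line, 867 with each hairpin and 50 in opposite directions, with 4 pigment and 5 interferon members. With any FPKM above 0 (24417 genes) these were 5866, 2134 (1156 higher, 978 lower) and 2146, with 14 pigment members. Quantile normalization gave 1789 higher and 2006 lower, 23 ribosomal and 22 oxidative phosphorylation members. A variance weight per line gave 2064 genes with each hairpin and 194 in opposite directions, and limma-voom on recovered reads 4064 called. Leaving out 1 library at a time gave 2614 to 5157 called, 883 to 1679 against each line, 1000 to 2429 with each hairpin, 78 to 160 opposite and 10 to 25 interferon members, the highest 4 counts without replicate 3 of A375 KD2. The cause was not tested. Without the A375 pair of lowest depth, chosen after seeing the data, 3421 were called. The replicate numbers carried no pairing (correlations from -0.70 to 0.53, 5 of 27 libraries closest to their own number), and with a replicate block 2807 genes were called. The A375 depth and its spread limit what small differences from A375 can show, and the low SKMEL2 levels of SERPIND1 limit its fold.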

Other observations

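A smaller set of genes responded by test in SKMEL2 and in neither BRAF-mutant line, with each hairpin contributing. The examples were chosen after their values were seen and are not all the largest of that kind. RRAS2, a RAS-related GTPase, stood at 4.41 to 5.11 FPKM in SKMEL2 controls (median 4.70) and 10.2 to 12.4 after knockdown (median 10.6). No knockdown library overlapped the controls, and the effects were 1.14 in SKMEL2, 0.21 in A2058 and -0.13 in A375, with an interaction of 1.10 ± 0.12 (SE, limma adjusted p = 4.11e-07). ID2, an inhibitor of basic helix-loop-helix factors, went from 1.98 to 2.31 FPKM to 3.63 to 4.99. On the other side RASSF3, a RAS-association domain protein, went from 34.1 to 39.0 FPKM to 17.8 to 22.5, with an interaction of -0.95 ± 0.13 (SE, adjusted p = 8.19e-06). PIK3R3, a regulatory subunit of PI3K, went from 13.3 to 14.9 FPKM to 7.67 to 8.67, with an interaction of -0.76 ± 0.09 (SE, adjusted p = 1.25e-06).

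Long noncoding RNAs leaned the other way from protein-coding genes in the interaction. Of 520 tested, 90 were higher and 56 lower in SKMEL2, and 41 were higher and 19 lower than in each BRAF-mutant line. Of 9610 protein-coding genes, 1229 were higher and 1956 lower, and 374 and 689 differed from each line. Over all genes the lean changed with the level required. Of called genes, 32.9% were higher with an FPKM of at least 5 and 51.4% with any FPKM above 0. The classes were not matched for level, and the part of level in their contrast was not tested. Reads of overlapping antisense genes cannot be assigned with certainty, since no source names the strand setting, and their part was not tested.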
